A study of Mus musculus with 7 samples.

Results

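The genes examined here encode insulin-like growth factor 1 (Igf1), its receptor Igf1r, 6 IGF-binding proteins (Igfbp2 to Igfbp7) and the receptor substrates Irs1 and Irs2. They were chosen by gene symbol in the platform annotation. All 10 had a feature on the array, out of 16565 genes with a feature there, and 9 of the 10 were bright enough to be tested, out of 10087 tested genes. The tissue was the palatal shelf, the outgrowth that forms the roof of the mouth, taken from 7 mouse embryos at E13.75. The 3 controls were wild-type C57BL/6 embryos and the 4 mutants had the genotype Adamts9+/-:bt/bt on the same strain, with a single working copy of Adamts9 and the belted (bt) allele of Adamts20 on both chromosomes. Both genes encode secreted proteases that cleave versican, and the series asks how that cleavage bears on palate closure and mesenchymal proliferation. The controls were described as age-matched, the sources used here do not call them littermates, and no embryo with the Adamts9 or the bt allele alone was analysed here. All alleles are germline, so no cell type is singled out by the genotype.

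IGF1 and IGF2 are secreted growth factors that act through the receptor tyrosine kinase IGF1R. The active receptor phosphorylates IRS1 and IRS2, which pass the signal to PI3K and AKT. It also phosphorylates SHC, and the adaptor GRB2 then links SHC to RAS and MAPK. IGF-binding proteins hold IGFs in the extracellular space, where they can block or store the ligand until a protease cuts them, and in the embryonic face they are made by mesenchyme around growing structures.

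For the binding proteins that carry the results, the promoter windows of RefSeq (GRCm38.p6, 250 bases before to 50 after a start site, 5′ to 3′ on the gene's strand) are shown because members next to each other in the genome moved in opposite directions. Igfbp2 and Igfbp5 are adjacent protein-coding genes on chromosome 1, and Igfbp3 lies next to Igfbp1 on chromosome 11. All 10 genes had a window. Capitals mark matches on either strand to 8 short motifs. The first is the box TATAAA, which many regulated promoters carry near the start site. The box GGGCGG is bound by SP1 and its relatives. The box CCAAT is bound by NF-Y. The hypoxia response element has the core ACGTG. FOXO factors, which IGF signalling restrains, are known to bind GTAAACA. The E-box searched was CACGTG. The AP-2 site searched was GCCNNNGGC. The AP-1 site searched was TGANTCA. The E-box contains the hypoxia response core on both strands, so a match to the E-box always counts for the core too. The AP-2 and AP-1 sites were added after matches to the other motifs had been seen.
Igfbp2, first of 2 start sites in the table, chr1:72824230-72824529, + strand: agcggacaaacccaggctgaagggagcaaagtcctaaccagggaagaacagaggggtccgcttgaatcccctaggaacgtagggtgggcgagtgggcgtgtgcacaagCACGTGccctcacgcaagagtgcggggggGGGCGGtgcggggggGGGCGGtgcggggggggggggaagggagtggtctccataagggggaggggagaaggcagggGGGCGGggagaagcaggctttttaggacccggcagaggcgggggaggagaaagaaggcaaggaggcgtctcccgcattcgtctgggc
Igfbp5, chr1:72874816-72875115, - strand: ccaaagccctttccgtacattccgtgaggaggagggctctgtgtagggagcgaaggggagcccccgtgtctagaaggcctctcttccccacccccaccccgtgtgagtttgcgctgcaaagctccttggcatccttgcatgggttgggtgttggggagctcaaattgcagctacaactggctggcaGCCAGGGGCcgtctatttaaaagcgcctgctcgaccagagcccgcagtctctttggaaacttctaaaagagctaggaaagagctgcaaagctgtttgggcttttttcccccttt
Igfbp3, chr11:7213874-7214173, - strand: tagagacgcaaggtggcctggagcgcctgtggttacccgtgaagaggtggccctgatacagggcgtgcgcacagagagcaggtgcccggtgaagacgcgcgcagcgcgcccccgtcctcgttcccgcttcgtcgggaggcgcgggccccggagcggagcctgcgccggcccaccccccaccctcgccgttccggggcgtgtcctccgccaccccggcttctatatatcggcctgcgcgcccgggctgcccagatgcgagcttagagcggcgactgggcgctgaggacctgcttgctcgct
Igfbp4, chr11:99040994-99041293, + strand: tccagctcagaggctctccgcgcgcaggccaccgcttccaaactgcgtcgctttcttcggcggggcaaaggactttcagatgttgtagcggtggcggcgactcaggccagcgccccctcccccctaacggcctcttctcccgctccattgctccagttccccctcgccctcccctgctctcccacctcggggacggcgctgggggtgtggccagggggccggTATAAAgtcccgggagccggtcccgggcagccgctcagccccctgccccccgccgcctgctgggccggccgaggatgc
The first Igfbp2 window held 3 GC boxes. Of all 32851 windows of this length 35.7% held at least 1 GC box and 10.7% at least 3. The same Igfbp2 window also held 1 E-box, which 7.15% of windows have. The window of the second Igfbp2 start site, not shown, held neither motif and had 1 AP-1 site (7.81% of windows). The Igfbp4 window held a TATA box 28 bases before the start site (13.6% of windows have that motif). The Igfbp5 window held an AP-2 site (16.6% of windows). Only exact matches to the 8 motifs were counted, so variants, such as other TATA-like letters, were not searched. The Igfbp3 window held no exact match. It was rich in G and C, at 71.7% against a median of 52.7% over all windows. So were the Igfbp4 window (71.3%) and the first Igfbp2 window (67%), while the Igfbp5 window was at 56.3%. Among the members not shown the share ran from 49.7% (Igfbp6) to 76% (Igf1r). Matches are descriptions of these letters only.

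Each embryo gave 1 Illumina array, so 7 arrays set the precision. Values are normalized log2 intensities. The detection limit was the 40th percentile of feature means, 6.10. The raw upper quartile ran from 209.4 to 247.8 in the wild-type arrays and from 172 to 200.2 in the mutant arrays. The wild-type arrays were not alike. On the leading principal component of all detected features wild-type replicates 1 and 2 lay at -24.4 and -30.8, wild-type replicate 3 at -13.0, and the mutants between 14.9 and 20.3. Xist read 8.49 in wild-type replicate 3, 8.19 in mutant replicate 1 and 7.94 in mutant replicate 3, and from 6.04 to 6.14 in the other 4 arrays, where the Y-linked gene Eif2s3y was high. Wild-type replicate 3 was therefore the only wild-type array read as female. Each tested member is given below with and without that array. All 15 palatal mesenchyme markers on the array were detected, some of them near the limit, such as Alx4 (6.17 in each wild type), and so were all 14 epithelial markers.

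Of the 9 tested members, Igfbp2, Igfbp3 and Igfbp7 rose in the mutant shelves, Igfbp4 and Igfbp5 fell, and Igf1, Igf1r, Irs1 and Irs2 did not pass the test. These 5 calls are 55.6% of the tested members. Over all 10869 tested features 36.8% passed the same test (limma, Benjamini-Hochberg adjusted p of 0.05), 16.9% as higher and 19.8% as lower, so single calls were common in this comparison. The median difference was 0.21 log2 units over the 9 members and 0.00 over all tested features. The groups were fully apart for 4 members, against 42.6% of all tested features (19.7% with the mutants above and 22.9% with the mutants below). Whole shelves were used, so fewer cells of a type and less RNA per cell cannot be told apart.

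**Figure D1:**
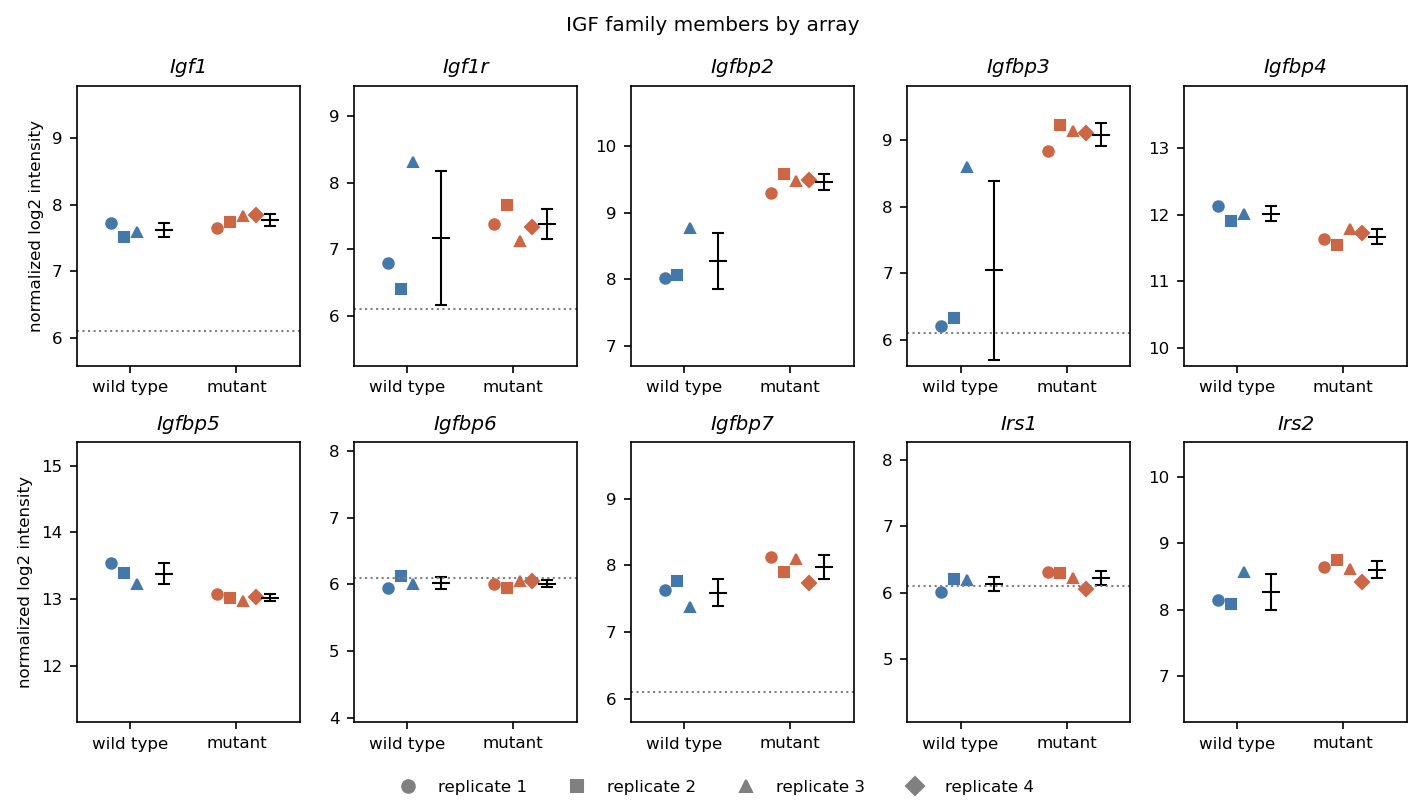
Normalized log2 intensity (vertical axis, the same span of log2 units in every panel) of the 10 genes on each array, with a marker shape for each replicate, black bars for the group mean ± SD (3 wild-type, 4 mutant arrays) and a dotted line at the detection limit of 6.10 where it falls in the panel. Igfbp2 and Igfbp3 lay higher in all 4 mutants, Igfbp4 and Igfbp5 lower, and wild-type replicate 3 stood apart from the other wild-type arrays for Igfbp3 and Igf1r.

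Igfbp3 encodes the main IGF carrier of adult serum. It read 6.20, 6.33 and 8.60 in the wild types (replicates 1 to 3) and 8.83, 9.22, 9.14 and 9.11 in the mutants (replicates 1 to 4). All mutants lay above all wild types, but wild-type replicate 3 lay close to the mutants and the other wild-type arrays lay near the detection limit. The group means were 7.04 ± 1.35 (SD, n = 3) and 9.08 ± 0.17 (SD, n = 4), a log2 difference of 2.03 or 4.10-fold (SE 0.50, adjusted p = 0.0126, 95% interval 0.90 to 3.17). The exact permutation p was 0.0286, which no set of 7 arrays split 3 to 4 can go below. Only 0.0644% of tested features had a wild-type SD as large as that of Igfbp3. The size of the difference rests on which wild-type arrays are used: it was 2.81 without wild-type replicate 3 and 0.48 (adjusted p = 0.0584) against that array alone, in a fit where the lone wild-type array is assumed to vary as the mutants do. Leaving out wild-type replicate 1 gave 1.61 (adjusted p = 0.0517), which did not pass. Among the mutants, the female embryos read 8.83 and 9.14 and the male embryos 9.22 and 9.11 for Igfbp3, and the wild types hold a single female array, so sex and array cannot be told apart among them.

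Igfbp2 encodes a binding protein that also carries an RGD motif for integrins. Its values were 8.02, 8.06 and 8.77 in the wild types and 9.30, 9.59, 9.48 and 9.49 in the mutants. Every mutant was above every wild type, with wild-type replicate 3 about midway between the other wild types and the mutants. The difference was 1.18 log2 units or 2.27-fold (SE 0.17, adjusted p = 0.00087, 95% interval 0.80 to 1.56, exact permutation p = 0.0286). With median centring it was 0.88 (adjusted p = 0.000793). This rise kept its call without each array in turn (1.05 to 1.42, the latter without wild-type replicate 3) and against wild-type replicate 3 alone (0.70, adjusted p = 0.00647).

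Igfbp7 encodes a secreted relative of the binding proteins with low affinity for IGFs. It read 7.63, 7.77 and 7.37 in the wild types and 8.13, 7.90, 8.10 and 7.74 in the mutants. The groups overlapped, since mutant replicate 4 lay under wild-type replicate 2. The difference of 0.37 (SE 0.12, 1.30-fold) passed limma's test with an adjusted p of 0.0386, while its exact permutation p was 0.0857. It did not pass when wild-type replicate 1 (0.39, adjusted p = 0.0831), wild-type replicate 3 (0.26, adjusted p = 0.0997), mutant replicate 1 (0.32, adjusted p = 0.0896), mutant replicate 2 (0.40, adjusted p = 0.0593) or mutant replicate 3 (0.33, adjusted p = 0.0977) was left out. With median centring of the arrays it was 0.10, while the median of all features was -0.14.

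Igfbp4 and Igfbp5 fell by similar amounts. Igfbp5 encodes a binding protein that attaches to extracellular matrix and is abundant in skeletal and craniofacial mesenchyme. It read 13.54, 13.39 and 13.22 in the wild types and 13.08, 13.01, 12.97 and 13.03 in the mutants, so all mutants were lower and lay close together. The log2 difference was -0.36 (1.29-fold lower, SE 0.08, adjusted p = 0.00709, 95% interval -0.54 to -0.18, exact permutation p = 0.0286). Igfbp4 encodes a binding protein known mainly as an inhibitor of IGF action until it is cleaved. Its values were 12.13, 11.91 and 12.01 in the wild types and 11.63, 11.54, 11.78 and 11.73 in the mutants, and these groups did not overlap either. The difference was -0.34 (1.27-fold lower, SE 0.08, adjusted p = 0.00961, 95% interval -0.52 to -0.16, exact permutation p = 0.0286). Both falls kept their calls without each array in turn, at -0.45 to -0.28 for Igfbp5 and -0.40 to -0.29 for Igfbp4. Without wild-type replicate 3 they were -0.45 and -0.34. Their size also depended on the scaling, at -0.50 for Igfbp5 and -0.60 for Igfbp4 with median centring. Against wild-type replicate 3 alone, neither passed. Igfbp4 kept its size there (-0.34, adjusted p = 0.0754) and Igfbp5 moved to -0.20 (adjusted p = 0.168).

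Igfbp6, whose protein prefers IGF2, was not detected. Its values ran from 5.95 to 6.12 in the wild types and from 5.95 to 6.05 in the mutants, and it was not tested.

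The ligand, the receptor and the substrates did not pass. Igf1 read 7.73, 7.52 and 7.59 in the wild types and 7.65, 7.75, 7.84 and 7.85 in the mutants, and the groups overlapped. Its difference was 0.16 (SE 0.07, 95% interval -0.01 to 0.32, adjusted p = 0.133), and it turned to -0.12 (adjusted p = 0.291) with median centring. It was 0.15 without wild-type replicate 3. The interval leaves room for a difference of up to 0.32 log2 units. Irs2, a substrate shared by the insulin and IGF1 receptors, read 8.14, 8.09 and 8.57 in the wild types and 8.64, 8.74, 8.61 and 8.42 in the mutants. Its difference was 0.33 (SE 0.12, adjusted p = 0.0641). Here too wild-type replicate 3 lay among the mutants, and the difference was 0.49 without it (adjusted p = 0.00284) and 0.03 against it alone (adjusted p = 0.912). Irs2 also passed without mutant replicate 4 (0.40, adjusted p = 0.0499). With median centring its difference was 0.03 (adjusted p = 0.874). Irs1, the other main substrate, lay near the detection limit, from 6.01 to 6.20 in the wild types and from 6.06 to 6.31 in the mutants (difference 0.09, SE 0.08, adjusted p = 0.409, and 0.12 without wild-type replicate 3).

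Igf1r showed the widest spread after Igfbp3. It read 6.80, 6.40 and 8.31 in the wild types and 7.39, 7.67, 7.13 and 7.33 in the mutants, so wild-type replicate 3 lay above every mutant and the other wild types below every mutant. The means were 7.17 ± 1.01 (SD, n = 3) and 7.38 ± 0.23 (SD, n = 4), and only 0.276% of tested features had a wild-type SD as large. The difference was 0.21 (SE 0.38, 95% interval -0.66 to 1.08, adjusted p = 0.715). Its sign depended on the wild-type arrays used. Leaving out wild-type replicate 3 gave 0.78 (adjusted p = 0.00405), leaving out wild-type replicate 2 gave -0.18 (adjusted p = 0.753), and wild-type replicate 3 alone gave -0.93 (adjusted p = 0.0114). No direction is therefore given for Igf1r.

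**Figure D2:**
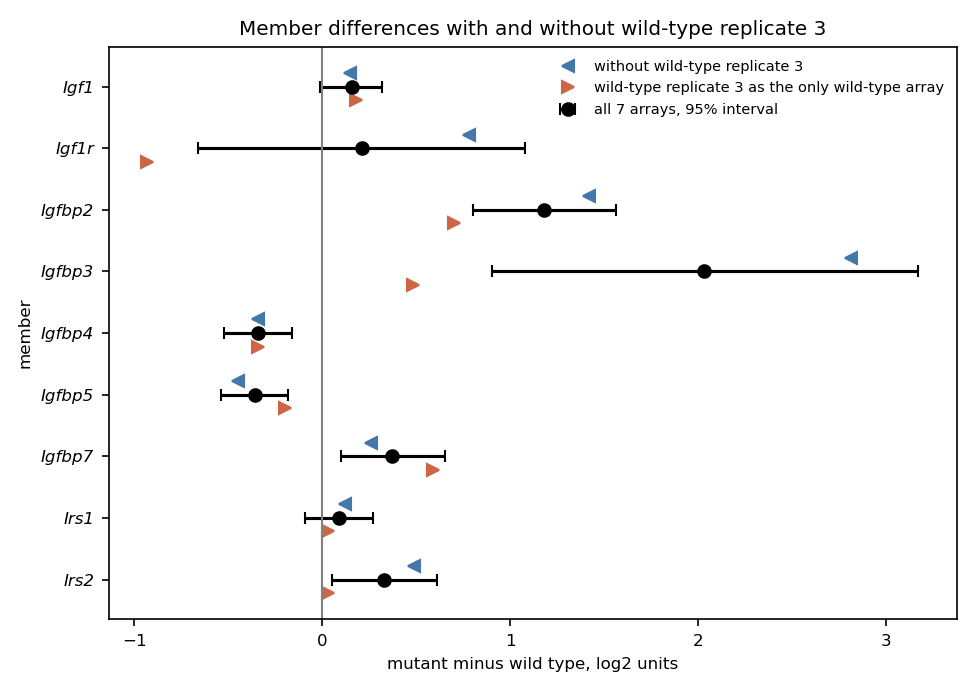
Mutant minus wild type in log2 units (horizontal axis) for the 9 tested members, as black points with limma's 95% interval from all 7 arrays and as coloured triangles without wild-type replicate 3 or against it alone. The triangles lie close together for Igf1, Igfbp4 and Irs1 and far apart for Igfbp3 (2.81 and 0.48) and Igf1r (0.78 and -0.93).

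Wild-type replicate 3 did not move the members alike. Measured on the way from the mean of wild-type replicates 1 and 2 to the mutant mean, it lay at 83.1% for Igfbp3 and 50.9% for Igfbp2, the members with a gap of at least 1 log2 unit. Over the 423 tested features with such a gap the median was 28.5%. Members with a smaller gap were spread more widely. Wild-type replicate 3 lay at 94.4% for Irs2, 70.9% for Irs1, 56.1% for Igfbp5 and 1.1% for Igfbp4. It lay beyond the mutants for Igf1r, at 219%, and on the side away from them for Igf1, at -22.7%, and Igfbp7, at -125%. Igfbp4 thus fell by the same 0.34 against either set of wild-type arrays. Of 13 tested features with wild-type replicates 1 and 2 under 6.5 and all mutants over 8, 5 had wild-type replicate 3 over 8 as well, namely Igfbp3, Eif3c, Gnas, Rbbp7 and Snrnp70. These limits were set after the values were seen. The other 4 encode a translation factor, a G protein, a chromatin protein and a splicing factor. Array and embryo cannot be told apart here, since each embryo has 1 array.

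**Figure D3:**
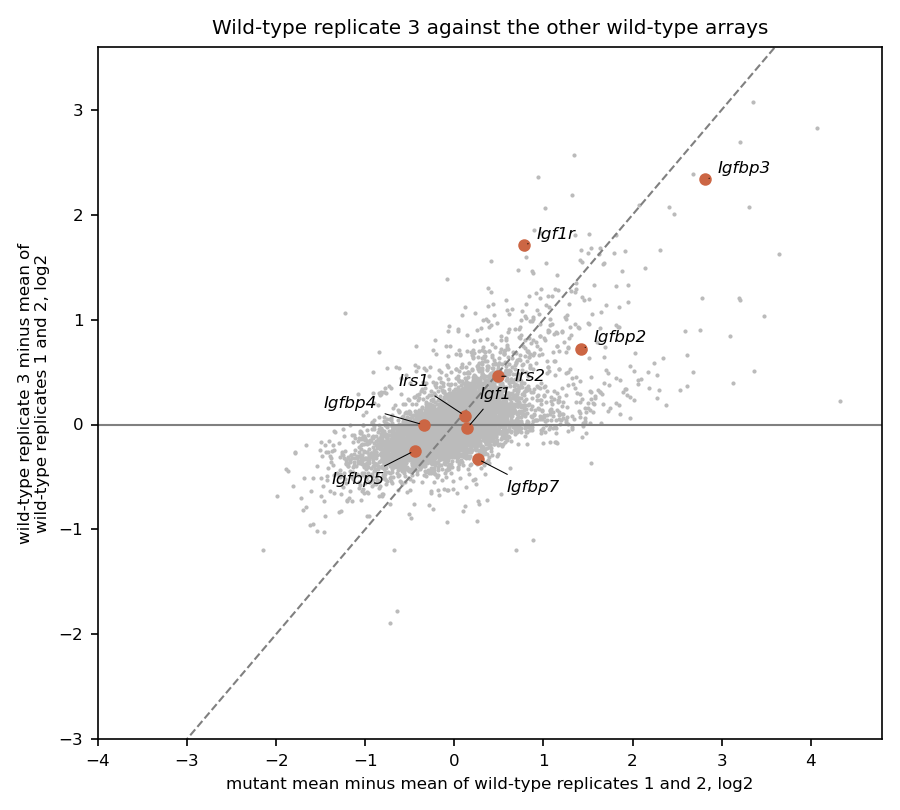
Each grey point is a tested feature, with the mutant mean (horizontal) and wild-type replicate 3 (vertical) both relative to the mean of wild-type replicates 1 and 2, in log2 units. The dashed line marks equal values, near which Igfbp3 and Irs2 lie, with Igf1r above it and Igfbp2 about midway between it and the horizontal line at 0.

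The genes whose values followed each called member most closely over the 7 arrays were listed by Pearson's r, as a description in which every point shares the group difference. For Igfbp3 they were Dzip3, Nkrf and Ube2g2 (r = 0.996 each). For Igfbp2 they were Acaa2 (0.997), a mitochondrial thiolase, Ube2e1 (0.996) and Nfyb (0.995), a subunit of the CCAAT-binding factor NF-Y. For Igfbp5 they were Ddost (0.996), Prkag1 (0.996), a subunit of AMP-activated kinase, and Gja4 (0.994), a connexin of arteries. For Igfbp4 they were Arl2bp (0.990), Sim2 (0.969) and C1qtnf1 (0.967), and for Igfbp7 Ly96 (0.979), Nars (0.971) and Ankrd12 (0.968). A high r does not mean a difference of like size. Dzip3, Nkrf and Ube2g2 differed by 0.83, 0.08 and 0.43 log2 units against 2.03 for Igfbp3. Ube2g2 lay under the detection limit in wild-type replicates 1 and 2, at 5.93 and 5.91. Ly96, Nars and Ankrd12 differed by 0.18, 0.16 and 0.13 against 0.37 for Igfbp7. Acaa2 differed by 1.53 log2 units against 1.18 for Igfbp2, at 6.75, 6.86 and 7.73 in the wild types and 8.50 to 8.72 in the mutants. Sim2, a transcription factor of the palate, read 9.66, 9.15 and 9.27 in the wild types and 7.97 to 8.63 in the mutants. Listed the same way after its values were seen, Igf1r was followed most closely by Snx19 (0.986), Actn4 (0.980), an actin-crosslinking protein, and Nfya (0.979), another NF-Y subunit. Snx19 ran only from 5.82 to 6.42, near the detection limit.

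The other genes of the pathway were listed by role. Of 102 listed genes 87 had a feature and 68 were tested, of which 17 rose, 18 fell and 33 did not pass. That is 51.5% called, with a median difference of -0.01. Over all tested features 36.8% were called, 16.9% as higher and 19.8% as lower. By list the called share was 75% of 4 other ligands, receptors and carriers, 42.9% of 7 genes of binding protein cleavage and 42.9% of 21 PI3K, AKT and mTOR genes. It was 37.5% of 8 RAS and MAPK genes, 60% of 15 adaptors and brakes and 61.5% of 13 FOXO factors and targets. The count of rises was 10 without wild-type replicate 1, 10 without wild-type replicate 2 and 11 without mutant replicate 3. Leaving out 1 array kept between 24 and 31 of the 35 calls. The balance depended on the scaling. With median centring 6 rose and 26 fell, in a setting where 758 of all tested features were higher and 3875 lower. The split within each list given below for median centring shares that shift towards falls. Of the 35 calls, 24 kept their call and direction there, 2 (Pdpk1 and Socs2) changed sign, and 21 moved by more than 1.5 times. Against wild-type replicate 3 alone 10 rose and 11 fell, and 21 of the 35 kept their call and direction.

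**Figure D4:**
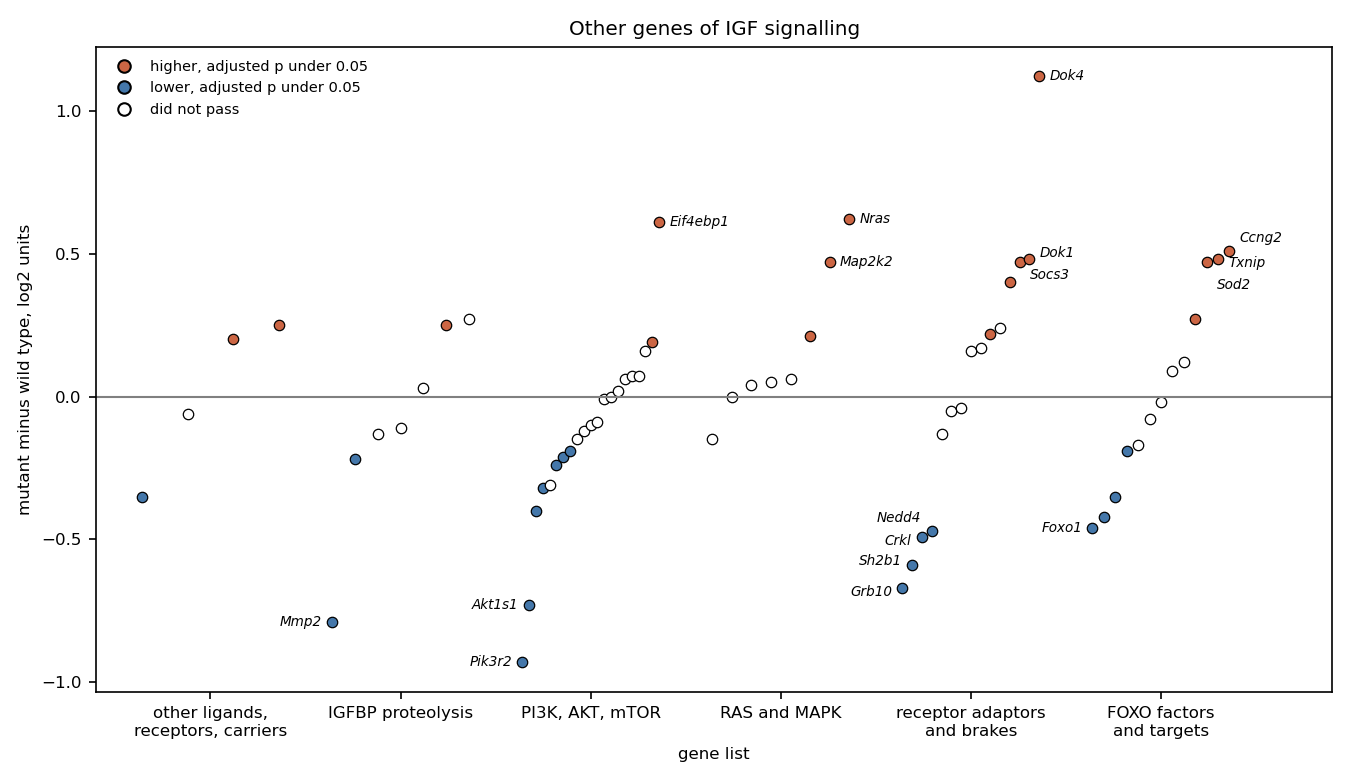
Mutant minus wild type in log2 units (vertical axis) for each tested gene of 6 lists, ordered by value within a list, with filled points for genes past an adjusted p of 0.05 and names for those at least 0.45 log2 units away from 0. Dok4 (1.12) was the highest and Pik3r2 (-0.93) the lowest, while with median centring the sign of Pdpk1 and Socs2, which are not named in the plot, turned.

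Among the other ligands, receptors and carriers, 4 of 9 with a feature were detected. Igf2, the main fetal IGF, read 14.38, 14.30 and 14.41 in the wild types and 14.48, 14.55, 14.58 and 14.64 in the mutants (difference 0.20, SE 0.06, adjusted p = 0.029). This call was not stable. It was lost with median centring (0.14, adjusted p = 0.116), with an offset of 16 (adjusted p = 0.0607), against wild-type replicate 3 alone (0.15, adjusted p = 0.316) and when any of wild-type replicates 1 and 2 or mutant replicates 2 to 4 was left out (0.17 to 0.21, adjusted p from 0.0541 to 0.105). Igf2r, the receptor that clears IGF2, fell by 0.35 (SE 0.09, adjusted p = 0.0136), with every mutant (8.72 to 8.97) below every wild type (9.03 to 9.32). It did not pass without wild-type replicate 1 (-0.29, adjusted p = 0.0598). Igfbpl1, a relative of the binding proteins, rose by 0.25 near the detection limit (adjusted p = 0.0287), a call lost without wild-type replicate 1 or 2 or mutant replicate 1 or 3. Its wild-type mean of 6.03 lay under that limit, and its mutant mean was 6.27. Igfals, which joins IGFBP3 in its serum complex, was at -0.06 (adjusted p = 0.548). Insr and Igfbp1 were not detected.

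Of 7 tested genes that cut binding proteins or restrain that cleavage, Mmp2 and Htra3 fell and Adamts1 rose. Mmp2, a gelatinase of mesenchyme, read 12.14, 12.10 and 11.90 in the wild types and 11.35, 11.28, 11.12 and 11.28 in the mutants (difference -0.79, SE 0.08, adjusted p = 0.00018). Htra3, a secreted serine protease, fell by 0.22 (adjusted p = 0.0172) and Adamts1 rose by 0.25 (adjusted p = 0.0246), both near the detection limit. The mutant mean of Htra3 was 6.07, under that limit. With an offset of 16 the differences were -0.42 for Htra3 and 0.44 for Adamts1. Both calls were lost without wild-type replicate 1 or 2 and against wild-type replicate 3 alone, and that of Adamts1 also without mutant replicate 2 or 3. The proteases Htra1 (0.27, adjusted p = 0.125) and Adam12 (-0.11, adjusted p = 0.415) did not pass.

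In the PI3K, AKT and mTOR list 2 of 21 tested genes rose, 7 fell and 12 did not pass (median -0.10), and with median centring 0 rose and 11 fell. The largest fall was in Pik3r2, a regulatory subunit of PI3K, at 8.10, 7.88 and 8.27 in the wild types and 7.05 to 7.21 in the mutants (difference -0.93, SE 0.09, adjusted p = 0.000167). Akt1s1, an AKT substrate that restrains mTORC1, fell by 0.73 (adjusted p = 0.000354), Mtor itself by 0.40 (adjusted p = 0.0075), and its upstream brake Tsc1 by 0.32 (adjusted p = 0.00482). Tsc1 lay near the detection limit in the mutants, at a mean of 6.12, and its difference was -0.57 with an offset of 16. Eif4ebp1, a repressor of translation that mTORC1 inactivates, rose by 0.61 (SE 0.17, adjusted p = 0.0227), but was 0.31 (adjusted p = 0.271) with median centring and missed the threshold without mutant replicate 3 (adjusted p = 0.0616) or mutant replicate 4 (adjusted p = 0.0557). Mtor (-0.26, adjusted p = 0.169) and Tsc1 (-0.24, adjusted p = 0.129) did not pass against wild-type replicate 3 alone. Tsc2 was lower as well (-0.19, adjusted p = 0.0287). The Tsc2 call was lost with an offset of 16 and without wild-type replicate 1 or 2 or mutant replicate 1, 3 or 4. With median centring Tsc2 was at -0.44 (adjusted p = 0.00555). Akt1 and Akt2 were not detected.

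In the RAS and MAPK list 3 of 8 tested genes rose, 0 fell and 5 did not pass (median 0.06), and with median centring 2 rose and 1 fell. Nras rose by 0.62 (SE 0.08, adjusted p = 0.000458), and the MAP kinase kinases Map2k2 and Map2k1 by 0.47 (adjusted p = 0.00079) and 0.21 (adjusted p = 0.0165). With median centring Nras was 0.35 (adjusted p = 0.00908) and Map2k2 0.21 (adjusted p = 0.0603). Map2k1 did not pass without wild-type replicate 1 (adjusted p = 0.0649) or 2 (adjusted p = 0.0543), or against wild-type replicate 3 alone (0.16, adjusted p = 0.251). The adaptors Shc1 (0.05, adjusted p = 0.569) and Grb2 (0.00, adjusted p = 0.976) did not pass.

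Among adaptors and brakes at the receptor 5 of 15 tested genes rose, 4 fell and 6 did not pass (median 0.16), and with median centring 2 rose and 6 fell. Dok4, a docking protein of the IRS family, read 8.46, 8.36 and 8.24 in the wild types and 9.28, 9.55, 9.63 and 9.45 in the mutants (2.18-fold, SE 0.09 in log2 units, adjusted p = 8.65e-05). Grb10, an imprinted adaptor that inhibits the insulin and IGF1 receptors, read 13.24, 13.06 and 13.06 in the wild types and 12.41 to 12.55 in the mutants (1.59-fold lower, adjusted p = 0.00018). Nedd4, a ubiquitin ligase that binds GRB10, fell by 0.47 log2 units (adjusted p = 0.000583), and Sh2b1, an adaptor that strengthens insulin receptor signalling, by 0.59 (adjusted p = 0.000134). The signalling inhibitor Socs3 (1.38-fold, adjusted p = 0.000296) and the phosphatase Ptpn1, which acts on the insulin receptor (1.32-fold, adjusted p = 0.00276), were higher. Both calls were lost with median centring. Socs3 moved there from 0.47 to 0.17 log2 units (adjusted p = 0.124). Ptpn1 moved from 0.40 to 0.11 (adjusted p = 0.272). Dok1 rose by 0.48 (adjusted p = 0.00124) and read 0.48 with median centring too (adjusted p = 0.00139). Its wild-type mean of 5.95 lay under the detection limit, and its mutant mean was 6.43.

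In the list of FOXO factors and genes known as their targets 4 of 13 tested genes rose, 4 fell and 5 did not pass (median -0.02), and with median centring 0 rose and 5 fell. AKT keeps FOXO factors out of the nucleus. Foxo1 fell by 0.46 (SE 0.08, adjusted p = 0.00247), with 8.01, 7.86 and 7.89 in the wild types and 7.35 to 7.61 in the mutants. Of the targets, Ccng2 (0.51, adjusted p = 0.000473), Txnip (0.48, adjusted p = 0.00211) and Sod2 (0.47, adjusted p = 0.000642) rose, while Sesn3 (-0.42, adjusted p = 0.00193) and Bcl2l11 (-0.35, adjusted p = 0.00125) fell. With median centring the rises were 0.21 for Ccng2 (adjusted p = 0.0943), 0.17 for Txnip (adjusted p = 0.185) and 0.19 for Sod2 (adjusted p = 0.128), none of which passed. Sesn3 did not pass against wild-type replicate 3 alone (-0.36, adjusted p = 0.0572). Irs2, itself known as a FOXO target, did not pass, as given above.

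Marker lists of cell types were counted in the same fit, where 36.8% of all features passed. Of 17 tested neuron markers 14 rose and 0 fell (82.4% called). Their mean level was 6.78 to 7.62 in the wild types and 8.74 to 9.10 in the mutants, with Nefl and Snap25 below detection. Counted in both directions, the other lists lay near or below the share over all features. By direction, 16.9% of all features were called higher and 19.8% lower. The calls among endothelial and palatal mesenchyme markers were all or mostly falls, so against the share of falls alone these lists do not lie near or below it. Of 13 endothelial markers 5 fell and 0 rose (38.5%), with means of 7.92 to 8.12 and 7.61 to 7.79. Of 15 palatal mesenchyme markers 5 fell and 1 rose (40%), with means of 8.70 to 8.86 and 8.36 to 8.61. For muscle 1 of 14 rose and wild-type replicate 2 stood low, at a mean of 7.89 against 9.01 to 9.63 elsewhere. For cartilage 1 of 10 fell. Its mean was highest in wild-type replicate 3, at 8.12 against 7.22 to 7.84 in the other arrays. Bone markers had 2 of 8 higher (wild-type means 8.22 to 8.90, mutant means 8.75 to 8.92), epithelium 2 of 14 higher and 1 lower (8.15 to 8.41 and 8.12 to 8.43), and leukocytes 1 of 11 higher (6.97 to 6.99 and 6.96 to 7.11). Their part in the results on the IGF genes was not tested.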

How the data were processed

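Total RNA from palatal shelves of 7 embryos was labelled with biotin (Illumina TotalPrep), per the labels' protocols. The files deposited for each array hold linear intensity that is not normalized between arrays. The authors' deposited table of the series holds log2 values, with array medians of 6.21 to 6.23 and ranks equal to those of the intensity. How they were normalized, scanned and background-corrected is not given in the sources used here, and no detection p-value was used. Features were the 18116 distinct rows of intensity among 25695 probe IDs. Genes were named from the platform annotation, and the members were read by 13 probe IDs, with a pair for Igfbp2, Igfbp4 and Igfbp7 that shared identical values. Intensities were corrected with normexp (offset 50), log2-transformed and quantile-normalized. The 10869 features with a mean above the 40th percentile (6.10) were fitted with limma 3.58.1 in R 4.3.3 (mutant against wild type, two-sided test without covariates), and p-values were adjusted over all of them by Benjamini-Hochberg. Values are means ± SD, and differences are mutant minus wild type with limma's SE. Exact permutation tests were two-sided over 35 splits. For a listed gene the feature with the highest mean was used. The fit was checked on simulated data in which each feature had the same spread in both groups. Igfbp3 and Igf1r did not have that here, so the check does not cover them. Members and lists were chosen with earlier results of these data known. All members were named, as were up to 6 called genes of each list of related genes by smallest p. Genes named outside this rule (Igfals, Insr, Igfbp1, Akt1, Akt2, Shc1, Grb2, Htra1, Adam12, Eif3c, Gnas, Rbbp7, Snrnp70, Socs2, Pdpk1, Ptpn1) were chosen after their values were seen. Embryos with the same replicate number were not paired in the main fit. Their deviations from the group means correlated at -0.199, -0.162 and 0.065, and those of embryos with unlike numbers at -0.075 to 0.212. These values cannot show whether same-numbered embryos shared a litter or a batch. Alternatives were the authors' table, median centring, no background correction, offset 16, no filter, the 60th percentile, every probe ID, a replicate block, array weights, leaving out each array, and the mutants against wild-type replicate 3 alone.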

Additional observations from a re-analysis of the deposited data

How the results depend on the processing

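Igfbp2 kept its direction and its call under all 17 alternatives, and Igfbp4 and Igfbp5 under 16, the exception being the mutants against wild-type replicate 3 alone (-0.34 and -0.20). There the lone wild-type array is assumed to vary like the mutants, Igfbp3 read 0.48 and Igf1r -0.93, members lower numbered 1, related genes 10 higher and 11 lower, and all features 753 higher and 1002 lower. With median centring, which shifts the median of all features by -0.14, Igf1 read -0.12, Igfbp7 0.10 and Irs2 0.03. Igfbp2 read 0.88, Igfbp4 -0.60 and Igfbp5 -0.50 in that setting. Related genes were then 6 higher and 26 lower against 17 and 18. The split of all features was 758 higher and 3875 lower against 1840 and 2155. With every probe ID it was 2884 and 3416, since repeated rows are counted again. With no filter Igfbp7 was 0.37 (adjusted p = 0.0505), and with array weights Irs2 passed at 0.42 (adjusted p = 0.0078). With the replicate block 10 related genes were higher, 22 of the 35 related calls were kept, Eif4ebp1 was 0.59 (adjusted p = 0.0815) and Igf2 0.18 (adjusted p = 0.124), and no member's call changed. No sample correlated above 0.1 with its own number. Leaving out each array gave Igf1r from -0.18 to 0.78, Igfbp3 from 1.61 to 2.81, Igfbp7 from 0.26 to 0.46, Irs2 from 0.24 to 0.49, members higher from 1 to 4, and related genes higher from 10 to 19. The size of the Igfbp3 difference follows the background offset, with 2.55 at an offset of 16. Beyond the number of arrays and samples, the causes of these changes were not tested. Irs1 and Igfbp6, near the background, have little room to show a difference.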
